A study of Mus musculus with 8 samples.

Results

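The B-lineage genes Cd79a, Cd79b, Pax5, Vpreb1, Vpreb3, Igll1, Rag1, Rag2 and Dntt, a set of 9 genes chosen by name among the 49315 genes of the count tables, were followed across 7 sorted bone marrow stromal populations and 1 library of input bone marrow cells. All 9 were found by symbol. All 8 libraries are labelled as wild-type C57BL/6J bone marrow at 6 weeks of age. The Methods instead name the substrain C57BL/6JJcl, with a range of ages that starts at 6 weeks and extends further. For the sorted populations, called clusters 1 to 7, the Methods describe a gate negative for CD31, CD45 and TER119, enrichment by Sca-1, CD140a (PDGFR-alpha) and CD24, and separation by CD39 and CD54, and the Results also name Ly-6C. The input library is labelled as bone marrow cells, and its RNA-seq is not covered by the Methods. Its labels otherwise name the same stromal source as those of the sorted libraries. The sample labels give crushed bone marrow and a TruSeq kit for all 8 libraries, whereas the Methods give sorted cells and polyA selection. Each population had 1 library, so that no spread between replicates could be measured and a difference compares 2 libraries, not 2 populations. The number of mice pooled in a library is not given in the sources used here.

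Depth, as reads counted on genes, was 24205863, 25349917, 27102715, 32549319, 12833648, 31669132 and 33238133 for clusters 1 to 7 and 20162876 for the input. Levels are given as RPKM (the read count scaled by exon length and by the total count on genes), computed from the deposited counts, with an exact 95% Poisson interval of the count. Since PCR duplicates could not be recognised in count tables, all intervals describe counting error alone.

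B cells arise in bone marrow from lymphoid progenitors through pro-B and pre-B stages. RAG1 and RAG2 cut the immunoglobulin genes, terminal transferase (Dntt) adds bases at the joins, and the first heavy chain is displayed with the surrogate light chain made of VPREB1 and lambda5 (Igll1) together with the signalling pair CD79A and CD79B. PAX5 holds cells to the B-cell fate. Stromal cells of the marrow feed this process with interleukin 7 and CXCL12 but are not known to make the pre-B cell receptor.

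All 9 genes were counted in all 8 libraries, including the 7 that the gate should have cleared of CD45-positive blood cells. They took 8496 counts or 0.0421% of the input library, and between 0.00559% in cluster 3 (1516 counts) and 0.0178% in cluster 7 (5902 counts) of the sorted libraries. The gate marker itself was counted everywhere. Ptprc, which encodes CD45, had an RPKM of 2.92, 2.58, 1.69, 2.76, 1.80, 4.02 and 9.26 in clusters 1 to 7 and 13.5 in the input, so that cluster 7 stood out among the sorted libraries. The B cell markers Ms4a1, Ighm, Igkc and Cd22 were all above 0 in every library, with a summed RPKM of 109.9 in cluster 3 to 370.2 in cluster 7 against 582 in the input, and Igkc or Ighm as the most abundant. Of the stromal markers Pdgfra, Lepr, Cxcl12, Col1a1, Col1a2 and Pdgfrb, none was at 0, and their sum, led by Col1a1 or Col1a2, was 2.60 times (cluster 4) to 13.8 times (cluster 6) that of the input. Single markers went both ways by total count. In clusters 2 and 6, 3 of the 6 were more than 2-fold lower than the input, near the share of all genes (47.9% and 53.6%). With TMM library sizes (edgeR) in place of the total count, 0 and 1 were lower there, against 28.8% and 28.3% of all genes. In bulk RNA, fewer cells of a type and less RNA per cell cannot be told apart.

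How much a low value means was judged by 991 olfactory receptor genes, which bone marrow is not known to use. In the input library 65.8% of them had at least 3 counts and their 95th percentile was an RPKM of 2.76. In the sorted libraries between 1.82% (cluster 6) and 26.3% (cluster 5) reached 3 counts, and the highest 95th percentile was 0.245, in cluster 5. Reads on these genes were thus more frequent in the input than in any sorted library. Of the counts of cluster 5, 34.8% fell on Rn18s-rs5, Lars2 and mmu-mir-689-2, as against 10.4% in cluster 2 and 0.188% in the input. With TMM library sizes (edgeR) in place of the total count, RPKM on the log2 scale moved by -0.68 in the input and by -0.14, 0.01, 0.02, 0.04, 0.44, 0.37 and -0.05 in clusters 1 to 7. Clusters 5 and 6 therefore moved up in the orders given below with TMM sizes, and the TMM values that bear most on an order are given beside it.

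The signalling pair of the B cell receptor was the most abundant of the set in the input. Cd79a (chr7:24897381-24902197 in GRCm38, plus strand) encodes the alpha chain, and its RPKM was 16.7, 22.9, 9.07, 21.4, 16.8, 29.9 and 39.9 in clusters 1 to 7 and 86.8 in the input. Cluster 7 (95% interval 38.1 to 41.7) was above every other sorted library and cluster 3 (8.15 to 10.1) below every other, whereas clusters 2 and 4 and clusters 5 and 1 did not differ beyond counting error. With TMM sizes, clusters 6 and 7 were level at 38.5 each and cluster 5 (22.8) parted from cluster 1 (15.1). Cd79b (chr11:106311341-106314762, minus strand), the beta chain, had an RPKM of 28.0, 26.3, 14.6, 22.7, 21.5, 26.1 and 37.3 in clusters 1 to 7 and 98.9 in the input. Cluster 1, second among the sorted libraries by total count, was below clusters 6 (33.7), 5 (29.1) and 2 (26.5) with TMM sizes (25.4). The partners shared the top and bottom libraries, but Cd79b spanned a narrower range among the sorted libraries, 2.55-fold (2.32 to 2.80) against 4.40-fold (3.93 to 4.94) for Cd79a. The ratio of Cd79b to Cd79a was highest in cluster 1, at 1.68, and lowest in cluster 6, at 0.875, against 1.14 in the input.

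**Figure D1:**
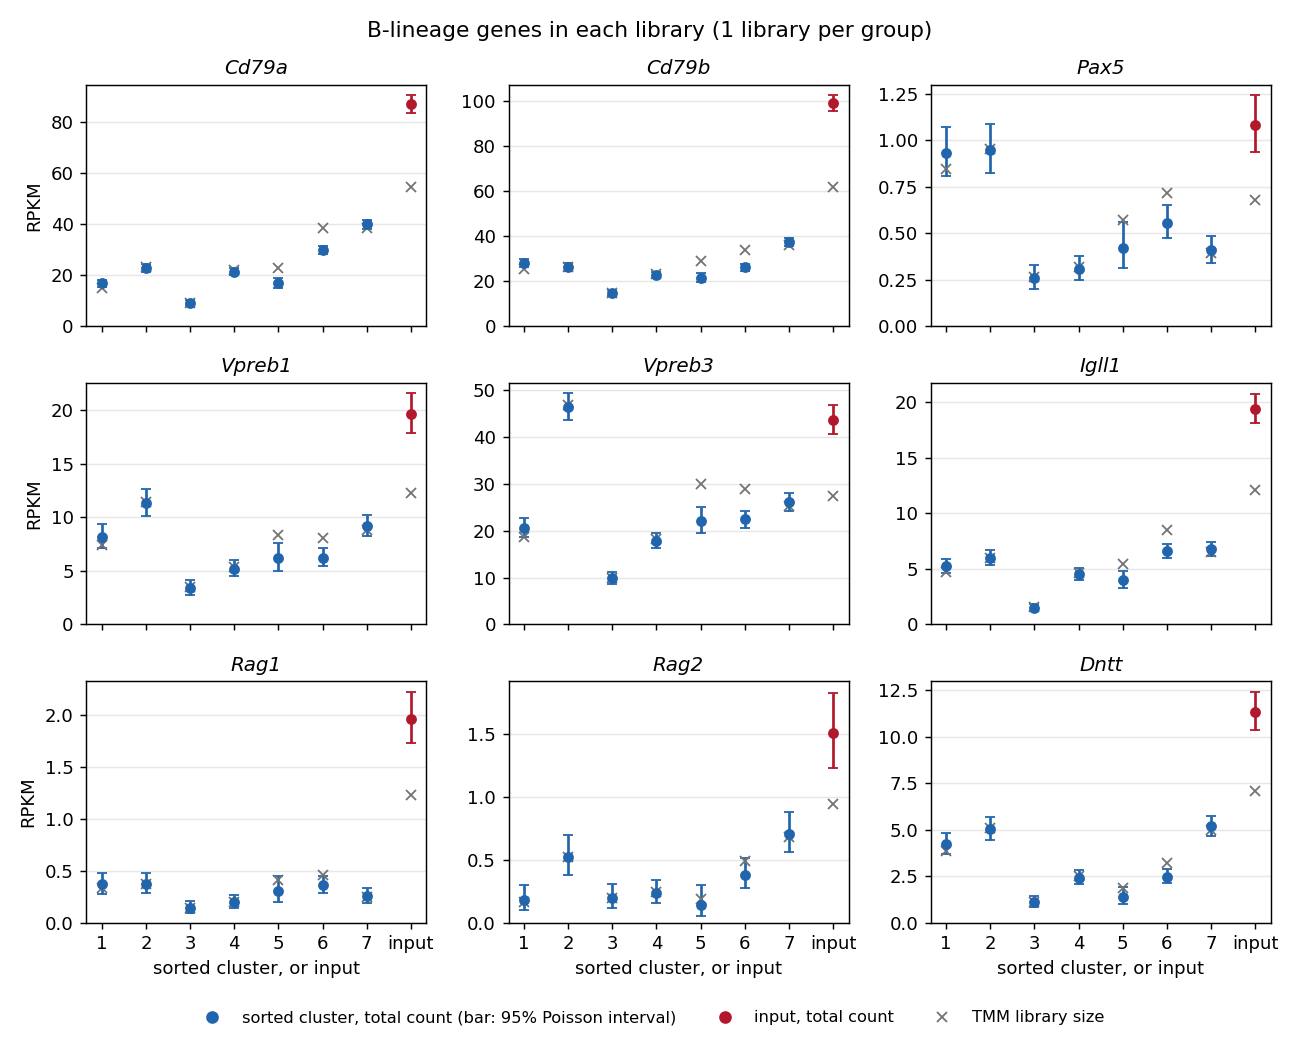
RPKM of each of the 9 genes (vertical axes, each from 0) in clusters 1 to 7 (blue) and the input (red), with bars for the 95% Poisson interval of the count and grey crosses for the value with TMM library sizes. By total count the input is highest for all genes but Vpreb3, where cluster 2 stands at 46.5 against 43.7 (with TMM sizes Pax5 is a further exception), and on both scales cluster 3 is the lowest sorted library for all but Rag2.

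Of the surrogate light chain genes and their relatives, Vpreb3 and Vpreb1 were highest among the sorted libraries in cluster 2, and Igll1, like the CD79 pair, in cluster 7. Vpreb3 (chr10:75943057-75949657, plus strand), a relative of VPREB1 that binds immunoglobulin chains inside the cell, had an RPKM of 20.6, 46.5, 9.84, 17.8, 22.1, 22.4 and 26.2 in clusters 1 to 7 and 43.7 in the input. Cluster 2 was 1.78-fold (1.62 to 1.96) above cluster 7, the next of the sorted libraries. It was level with the input within counting error, with a ratio of 1.06 (0.968 to 1.17), and with TMM sizes clusters 2 (46.8), 5 (29.9) and 6 (28.9) stood above it (27.4). By total count, Vpreb3 was the single gene of the set whose highest library was not the input. Its span overlaps Gm16221 on the other strand, which had at most 94 counts, and whether the counting used strand is not given in the sources used here.

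Vpreb1 (chr16:16868402-16870843, minus strand) encodes the variable-like part of the surrogate light chain. Its RPKM was 8.20, 11.3, 3.41, 5.19, 6.16, 6.24 and 9.16 in clusters 1 to 7 and 19.7 in the input. Cluster 2 was again the highest of the sorted libraries, 1.24-fold (1.06 to 1.45) above cluster 7. The value is uncertain in part, because Vpreb2, which had an RPKM of 0.946 in cluster 3 to 4.87 in cluster 2 and 6.94 in the input, shares 97.9% of its 429 coding bases with Vpreb1, and because Top3b overlaps the gene on the other strand with up to 1169 counts. Igll1 (chr16:16860671-16863985, minus strand), which encodes lambda5 and lies next to Vpreb1, had an RPKM of 5.23, 5.98, 1.52, 4.53, 4.03, 6.62 and 6.80 in clusters 1 to 7 and 19.4 in the input. From cluster 7 down to cluster 5 no neighbours in this order differed beyond counting error, although clusters 7 (6.21 to 7.43) and 6 (6.03 to 7.26) lay wholly above clusters 4 (4.05 to 5.05) and 5 (3.32 to 4.85). Cluster 3 was 2.66-fold (1.99 to 3.55) below cluster 5. The input was 2.86-fold to 12.8-fold higher for Igll1 and 1.73-fold to 5.76-fold higher for Vpreb1, with the larger gap for Igll1 in all sorted libraries but cluster 6 (2.93-fold against 3.15-fold). With TMM sizes these ranges were 1.42-fold to 7.88-fold for Igll1 and 1.08-fold to 3.55-fold for Vpreb1, which was then nearly level with the input in cluster 2 (11.4 against 12.3).

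Of the recombination genes, Dntt was the one with levels well above background. Dntt (chr19:41029275-41059523, plus strand) encodes terminal transferase, a marker of the pro-B stage, and its RPKM was 4.23, 5.04, 1.11, 2.43, 1.39, 2.48 and 5.17 in clusters 1 to 7 and 11.4 in the input. Clusters 7, 2 and 1 formed an upper group whose neighbours did not differ beyond counting error, and cluster 1 was 1.71-fold (1.39 to 2.10) above cluster 6 by total count. With TMM sizes this gap narrowed to 3.83 against 3.19. Rag1 (chr2:101638282-101649501, minus strand) and Rag2 (chr2:101624718-101632529, plus strand), the paired recombinase genes, were counted 25 to 75 and 6 to 80 times in the sorted libraries. Their RPKM stayed below 1 there, at 0.140 (cluster 3) to 0.370 (cluster 2) for Rag1 and 0.137 (cluster 5) to 0.703 (cluster 7) for Rag2. In the input they stood at 1.97 and 1.51, but 8.88% and 13.0% of the olfactory receptor genes were at or above these values in that library. In the sorted libraries at most 3.53% of olfactory receptor genes reached the level of Rag1, and at most 1.31% that of Rag2 apart from cluster 5, where 13.4% did. No neighbours in the order of the sorted libraries differed beyond counting error for either gene, whereas the highest exceeded the lowest 2.65-fold (1.64 to 4.40) for Rag1 and 5.15-fold (2.26 to 14.4) for Rag2. The overlapping B230118H07Rik had up to 693 counts.

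Pax5 (chr4:44524757-44710487, minus strand), the factor of B-cell commitment, was low everywhere. It overlaps 4 other annotated genes, which had at most 68 counts in a library. Its RPKM was 0.933, 0.949, 0.258, 0.309, 0.422, 0.556 and 0.408 in clusters 1 to 7 and 1.08 in the input. Clusters 1 and 2 did not differ from each other and stood 1.68-fold (1.35 to 2.08, cluster 1) or more above cluster 6, and they reached the input within counting error. In the input, 18.3% of olfactory receptor genes were at or above the level of Pax5, against at most 1.51% in any sorted library. With TMM sizes, Pax5 was higher in cluster 2 (0.954), cluster 1 (0.845) and cluster 6 (0.717) than in the input (0.677).

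Windows of 250 bases before the RefSeq start were in the promoter table for 8 of the 9 genes, with no entry for Cd79b. They were searched on both strands for the E-box CAGGTG read by E2A, the octamer ATGCAAAT of immunoglobulin promoters and the palindrome of EBF1 (TCCC, any 2 bases, GGGA). No window held more than 1 kind of match. CAGGTG was present in 4 of the 8 (Cd79a, Igll1, Rag1 and Vpreb1) against 17.2% of 32851 promoters, ATGCAAAT in 1 of the 8 (Vpreb3) against 1.60%, and the EBF1 palindrome in 0 of the 8 against 0.779%. A match describes the letters and not a bound site. The 3 windows below hold a match and no exon of the count tables. Vpreb3 is shown as the single gene of the set whose highest library by total count was not the input. Igll1 and Rag1 are shown because they had the largest single ratios of input to sorted library, both in cluster 3. All 3 windows are from RefSeq (GRCm38.p6), 5′ to 3′ on the strand of the gene, with the match in capitals.
Vpreb3 (chr10:75948050-75948299, plus strand): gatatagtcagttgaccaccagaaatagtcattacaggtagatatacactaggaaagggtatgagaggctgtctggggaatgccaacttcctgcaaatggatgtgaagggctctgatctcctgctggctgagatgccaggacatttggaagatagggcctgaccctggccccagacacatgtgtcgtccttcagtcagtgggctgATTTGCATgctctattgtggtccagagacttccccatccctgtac
Igll1 (chr16:16863986-16864235, minus strand): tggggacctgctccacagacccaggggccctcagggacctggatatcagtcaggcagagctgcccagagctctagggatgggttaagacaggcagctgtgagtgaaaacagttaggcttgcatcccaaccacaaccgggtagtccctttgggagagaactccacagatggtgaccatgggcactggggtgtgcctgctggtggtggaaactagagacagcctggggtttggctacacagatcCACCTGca
Rag1 (chr2:101649533-101649782, minus strand): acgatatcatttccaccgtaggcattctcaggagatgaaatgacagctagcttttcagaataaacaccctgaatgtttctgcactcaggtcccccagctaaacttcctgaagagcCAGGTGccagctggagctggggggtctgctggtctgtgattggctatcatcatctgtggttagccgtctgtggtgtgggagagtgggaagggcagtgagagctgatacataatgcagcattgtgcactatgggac
The octamer of Vpreb3 lay 45 bases before the start on the opposite strand, the E-box of Igll1 8 bases before it on the opposite strand, and that of Rag1 135 bases before it on the strand of the gene. The windows of Cd79a and Vpreb1 overlap exons of the count tables by 116 and 190 bases.

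Among the sorted libraries, cluster 3 was low for nearly the whole set. It was the lowest of the 7 for 8 of the 9 genes, and for 6 of the 6 that passed the filter of RPKM above 2 in at least 1 sorted library, whereas 8.11% of the 12360 genes that passed this filter were lowest in cluster 3. The same 8 genes were lowest in cluster 3 with TMM sizes, against 12.1% of genes on that scale. The exception was Rag2, lowest in cluster 5 (6 counts), as were 46.3% of all genes past the filter, and with TMM sizes in cluster 1. The top was shared. Cluster 7 was the highest sorted library for Cd79a, Cd79b, Igll1, Rag2 and Dntt, or 4 of the 6 genes past the filter against 25.3% of all genes, and cluster 2 for Pax5, Vpreb1, Vpreb3 and Rag1, or 2 of the 6 against 22.8%. With TMM sizes, cluster 2 led for 4 genes (Dntt in place of Rag1), cluster 7 for 3 and cluster 6 for Igll1 and Rag1. Of the 6 genes past the filter this was 3, 2 and 1, against 20.4%, 17.7% and 20.3% of all genes for clusters 2, 7 and 6. By the median over the 9 genes of log2(RPKM + 1), the order was cluster 7 (2.96), cluster 6 (2.86), cluster 2 (2.80), cluster 1 (2.64), cluster 4 (2.47), cluster 5 (2.33) and cluster 3 (1.33). The top of this order depends on the scaling, with cluster 6 first with TMM sizes and cluster 5 first when abundant loci are left out of the total.

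At an RPKM above 2, the threshold of the Methods, 6 of the 9 genes were counted in clusters 1, 2, 4, 6 and 7 and in the input, 5 in cluster 5 and 4 in cluster 3. The share of all genes above it was 21.3%, 20.2%, 19.6%, 19.9%, 17.6%, 18.3% and 20.7% in clusters 1 to 7 and 35.6% in the input. Pax5, Rag1 and Rag2 did not reach it in any library, Igll1 and Dntt did not in cluster 3, and Dntt did not in cluster 5.

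Each sorted library was then set against the input. The 9 genes were lower than the input in nearly every sorted library, and their median lay further below it than that of all genes. By total count, Vpreb1 in cluster 2 and Vpreb3 in clusters 2, 5 and 6 were less far below the input than the median of all genes. Pax5 in every sorted library and Rag2 in some also had smaller differences in log2(RPKM + 1) than that median. For these genes the comparison decides nothing, because input RPKM of 1.08 and 1.51 limits how far RPKM + 1 can fall. Neither gene passed the filter behind that median. As a plain ratio of RPKM, the input was 1.14-fold (cluster 2) to 4.18-fold (cluster 3) higher for Pax5. By total count, however, genes in general were lower in the sorted libraries. Of the 6 genes with RPKM above 2 in either library, RPKM + 1 was more than 2-fold lower for 6 in cluster 1 against 41.6% of all genes tested, 4 in cluster 2 against 47.9%, 6 in cluster 3 against 46.5%, 6 in cluster 4 against 45.5%, 5 in cluster 5 against 61.0%, 5 in cluster 6 against 53.6% and 5 in cluster 7 against 39.4%. Igll1 and Dntt in cluster 3 and Dntt in cluster 5 passed this filter only through the input, which by itself favours a lower call, so these counts are a description. None of the 6 was more than 2-fold higher, against 5.53%, 7.06%, 4.33%, 4.68%, 3.21%, 3.82% and 3.43% of all genes in clusters 1 to 7. By total count, 5 of the 6 genes past the filter, all but Vpreb3, were highest in the input of all 8 libraries, against 59.8% of the 19088 genes with RPKM above 2 in any library. Also by total count, Cd79a, Cd79b, Igll1 and Dntt were more than 2-fold higher in the input than in each sorted library, against 31.2%, with Dntt just at the threshold (5.17 in cluster 7 against 11.4). With TMM sizes none of them was, as their smallest ratios of input to sorted library were 1.41, 1.72, 1.42 and 1.40, in that order.

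The median over the 9 genes of the difference in log2(RPKM + 1) to the input was -1.17, -1.03, -2.23, -1.74, -1.53, -1.42 and -1.02 in clusters 1 to 7, and that over all genes tested was -0.67, -0.93, -0.87, -0.85, -1.24, -1.11 and -0.60. TMM sizes took the general shift away, to between -0.18 and 0.14, and left the 9 genes at -0.74, -0.42, -1.57, -1.07, -0.71, -0.49 and -0.43. On both scales the 9 genes had a lower median than all genes in each of the 7 comparisons, by the most in cluster 3 and by little in cluster 2 with total counts. The 9 include Pax5, Rag1 and Rag2, which did not pass the filter that the median of all genes rests on. Over the 6 genes that did, the median by total count was -1.48, -1.29, -2.61, -1.87, -2.09, -1.51 and -1.06 in clusters 1 to 7. All 7 comparisons share the input library. With TMM sizes the number more than 2-fold lower was 3, 2, 6, 5, 4, 0 and 0 in clusters 1 to 7, against 27.3%, 28.8%, 29.5%, 27.3%, 26.6%, 28.3% and 25.9% of all genes tested on that scale. In cluster 3 the input was 12.8-fold (10.3 to 16.1) higher for Igll1, 10.2-fold (7.87 to 13.5) for Dntt and 9.57-fold (8.57 to 10.7) for Cd79a by total count, and 7.88-fold, 6.30-fold and 5.90-fold with TMM sizes.

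**Figure D2:**
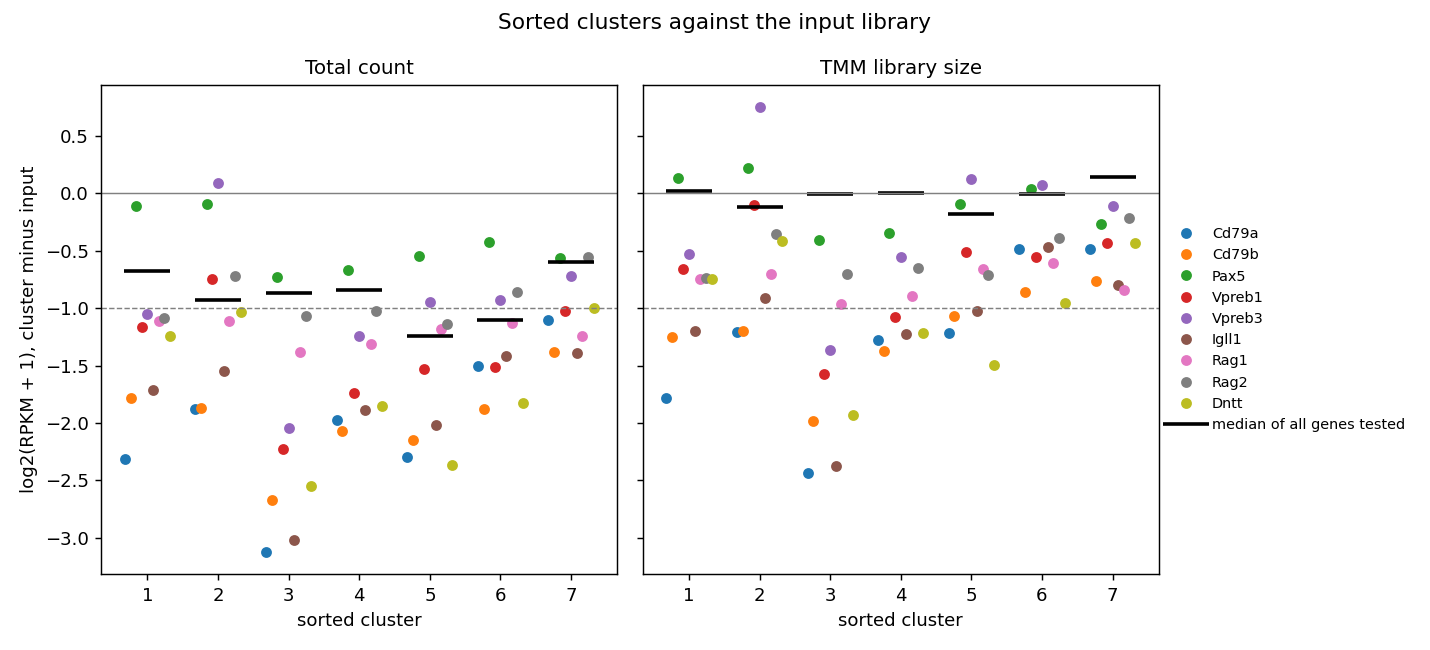
Difference in log2(RPKM + 1) between each sorted cluster and the input for the 9 genes (coloured points) and the median of all genes tested (black bars), by total count (left) and with TMM library sizes (right), where the dashed line marks 2-fold lower. The median of all genes lies at -0.60 to -1.24 on the left and at -0.18 to 0.14 on the right, and cluster 3 has the lowest points on both sides, with Cd79a at -3.12 by total count and -2.44 with TMM sizes.

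Ratios between genes of the same library do not depend on how libraries are scaled to each other. They were taken to Cd79a, which is made from the pro-B stage to the B cell, so that early and late genes of the lineage can be set against it. The share of all genes tested whose interval lay above that of the input was 62.8%, 55.8%, 64.8%, 58.6%, 53.9%, 44.3% and 50.5% in clusters 1 to 7, and the share below it was 19.7%, 25.6%, 13.2%, 24.9%, 15.1%, 34.5% and 31.6%. A ratio above the input was thus the more frequent case for genes in general. Vpreb3 per Cd79a was 1.23, 2.04, 1.08, 0.836, 1.31, 0.750 and 0.656 in clusters 1 to 7 and 0.504 in the input. All 7 intervals lay above that of the input, which also held for 36.7% of the 19087 genes tested, so the direction alone is not particular to Vpreb3. Cluster 2 was the furthest from the input, at 4.04 times its ratio. Vpreb1 per Cd79a was above the input, at 0.226, in cluster 1 (0.491), cluster 2 (0.496), cluster 3 (0.377) and cluster 5 (0.366), and its interval overlapped that of the input in clusters 4, 6 and 7. Dntt per Cd79a split the libraries, with clusters 1 (0.253) and 2 (0.221) above the input (0.131) and clusters 5 (0.0826) and 6 (0.0829) below it. Vpreb1 and Dntt were thus both above the input relative to Cd79a in clusters 1 and 2. Igll1 per Cd79a was above the input (0.224) in cluster 1 (0.313), below it in cluster 7 (0.171) and overlapped it in the other 5 libraries. Pax5 per Cd79a was above the input in clusters 1, 2, 3, 5 and 6, by 4.49 times in cluster 1 and 3.33 times in cluster 2, but the level of Pax5 in the input lay within the range of olfactory receptor genes.

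Rag1 per Cd79a was below the input (0.0227) in clusters 4, 6 and 7, at 0.00914, 0.0120 and 0.00639, and Rag2 per Cd79a differed from it beyond counting error in 0 of the 7. In the input, however, 8.88% and 13.0% of olfactory receptor genes were at or above the levels of Rag1 and Rag2. Like Pax5, neither gene reached the RPKM above 2 required for the shares of all genes given for these ratios. The surrogate light chain partners did not keep a fixed ratio. Igll1 per Vpreb1 was 0.988 in the input, below that in clusters 1, 2, 3, 5 and 7 (0.444 in cluster 3 to 0.742 in cluster 7) and level with it in clusters 4 (0.873) and 6 (1.06). The ratio rests on reads that Vpreb1 and Vpreb2 may share.

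Ms4a1, which encodes CD20 and increases as B cells mature, was lower per Cd79a in the sorted libraries. Its RPKM was 1.20, 1.04, 0.453, 0.755, 0.592, 1.64 and 2.12 in clusters 1 to 7 and 9.16 in the input. Per Cd79a this gave 0.0716, 0.0455, 0.0500, 0.0353, 0.0351, 0.0548 and 0.0531 against 0.106 in the input. All 7 intervals lay below that of the input, as for 9.50% of all genes tested. Vpreb3 per Ms4a1 consequently ran from 12.4 in cluster 7 to 44.8 in cluster 2 against 4.77 in the input, and Vpreb1 per Ms4a1 from 3.81 in cluster 6 to 10.9 in cluster 2 against 2.14. Cr2, the CD21 of mature B cells, was counted 4 to 27 times in the sorted libraries and 244 times in the input, where 13.2% of olfactory receptor genes reached its level, and its interval per Cd79a was also below that of the input in 7 of 7. The other mature genes examined this way differed from these. Cd37, a surface tetraspanin, was above the input per Cd79a in 5 of 7 libraries and below it in 0, Ighd, the delta heavy chain, above in 1 and below in 3, and Tnfrsf13c, the BAFF receptor, above in 2 and below in 3. Ighm, the mu heavy chain, was above the input per Cd79a in 6 of 7 libraries (3.64 in cluster 6 to 5.91 in cluster 3 against 3.19). In cluster 5 (3.34) its interval overlapped that of the input. The labels give the input the same protocol as the sorted libraries but mention no sort for any of them, and the part of the input's preparation in these ratios was not tested.

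**Figure D3:**
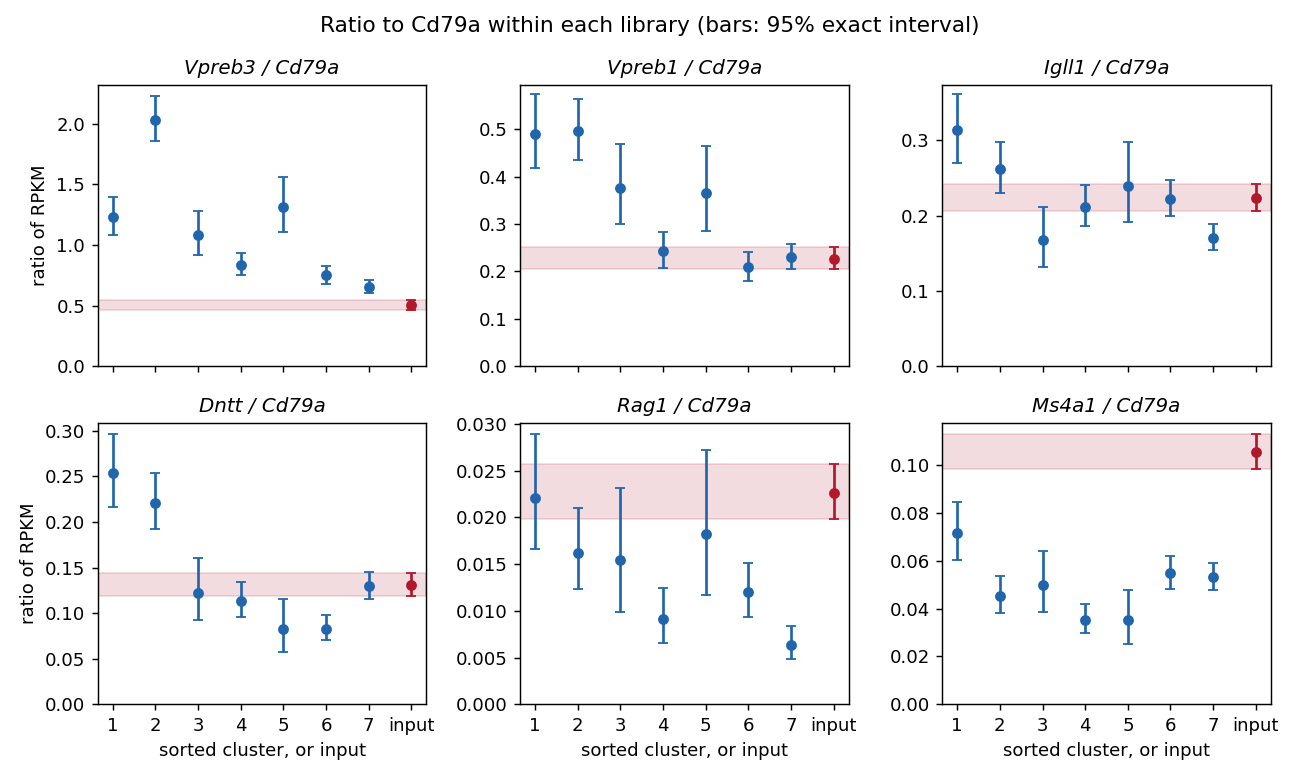
Ratio of RPKM to Cd79a within each library for Vpreb3, Vpreb1, Igll1, Dntt, Rag1 and Ms4a1 (vertical axes, each from 0), with 95% exact intervals from the counts, clusters in blue, the input in red and its interval as a red band. Vpreb3 lies above the band and Ms4a1 below it in all 7 clusters, whereas Dntt lies above it in clusters 1 and 2 and below it in clusters 5 and 6.

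The wider B-lineage lists were mostly lower than the input as well. Their counts stand against the shares of all genes that were lower by total count, 41.6%, 47.9%, 46.5%, 45.5%, 61.0%, 53.6% and 39.4% in clusters 1 to 7. Genes that pass the filter only through the input favour a lower call. Of the 10 mature genes above an RPKM of 2 in the input, for example, clusters 3, 4 and 5 had 4, 5 and 3 above it. The counts of lower genes are thus descriptions. Of 11 genes of pre-B cell receptor signalling and the B cell surface, all 11 passed the filter, and 11 were more than 2-fold lower than the input in clusters 3 and 5, 10 in clusters 2 and 4, 9 in cluster 1, 6 in cluster 6 and 5 in cluster 7. Blnk, an adaptor of the receptor, had an RPKM of 4.95, 3.28, 2.75, 3.01, 2.28, 3.10 and 4.22 in clusters 1 to 7 and 12.8 in the input. Blnk was lowest in cluster 5 by total count, and in cluster 3 with TMM sizes (2.80 against 3.08 in cluster 5). Of 12 mature B cell genes, 10 passed the filter, and 10 were lower in clusters 3, 4 and 5, 9 in clusters 1, 2 and 6 and 5 in cluster 7. All 6 immunoglobulin constant genes were lower in clusters 1 to 5, 5 in cluster 6 and 2 in cluster 7, with Igkc at 55.6 (cluster 3) to 198 (cluster 7) against 293. With TMM sizes the numbers lower in clusters 1 to 7 were 4, 5, 8, 6, 6, 1 and 0 of the signalling genes, 8, 6, 8, 7, 6, 1 and 1 of the mature genes and 4, 3, 6, 5, 3, 1 and 0 of the constant genes. The shares of all genes lower on that scale were 27.3%, 28.8%, 29.5%, 27.3%, 26.6%, 28.3% and 25.9%. The counts of clusters 6 and 7 lay below these shares.

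Genes of early lymphoid and B-lineage specification were lower in smaller numbers. Of 12 such genes 10 passed the filter, and 4, 2, 5, 4, 6, 3 and 1 were lower than the input in clusters 1 to 7, near or below the shares of all genes, while 2 were higher in clusters 1, 2, 3, 4 and 6 and 1 in clusters 5 and 7, against 3.21% (cluster 5) to 7.06% (cluster 2) of all genes. With TMM sizes 1 was lower in cluster 3 and 0 in the other 6 libraries, and 2 were higher in each of the 7, against 10.1% (cluster 7) to 16.7% (cluster 2) of all genes. The higher genes were Sox4 (14.3 in cluster 5 to 18.7 in cluster 1, against 4.73 in the input) and Foxo1 (8.67 in cluster 5 to 21.6 in cluster 4, against 5.32). Foxo1 was not called higher in clusters 5 and 7 by total count. Several of the 12 genes are also made outside the lineage. Ebf1, a B-lineage factor that stromal cells also express, had an RPKM of 14.3 in cluster 1 and 14.0 in cluster 3 against 11.7 in the input, with 2.79 in cluster 6. It was not called higher in any cluster, and by total count it was more than 2-fold lower in clusters 2, 5 and 6. Ebf1 per Cd79a was 1.55 in cluster 3 against 0.134 in the input. Il7r, the interleukin 7 receptor of early B cells, had an RPKM of 1.21, 2.25, 0.679, 0.833, 1.24, 1.71 and 2.03 in clusters 1 to 7 and 4.07 in the input, and so was also lowest in cluster 3. Plasma cell genes gave a mixed picture, as 1 (cluster 2) to 5 (cluster 5) of 6 or 7 were lower, or 0 to 2 with TMM sizes, and Xbp1, a secretory factor of many cell types, was the most abundant at 42.6 to 96.9. Jchain, which joins IgM and IgA chains, was counted 38 to 597 times in the sorted libraries and 7 times in the input, and Tnfrsf17, a receptor of plasma cells, 0 to 9 times and 71 times. These 2 genes of the same cell type thus pointed in opposite directions.

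Of the niche factors that stromal cells supply to B-cell precursors, Cxcl12 was the most abundant in every library, at 5.04 in cluster 6 to 139 in cluster 4 and 27.0 in the input. Il7 was at 0.268 (cluster 6) to 1.71 (cluster 1) and 3.27 in the input, where 3.83% of olfactory receptor genes reached that level. Flt3l was listed at 0 in all 8 libraries. Of the 4 or 5 factors past the filter, 3 were more than 2-fold higher than the input in cluster 4 (4.68% of all genes) and 1 each in clusters 1 (5.53%) and 7 (3.43%), while 4 were lower in cluster 6 and 1 to 3 in the others. With TMM sizes 3 were higher in clusters 4, 5 and 7, 1 in cluster 1 and 0 in the others, and 3 were lower in cluster 6 and 0 or 1 in the others. On that scale 13.4%, 16.7%, 13.8%, 14.3%, 12.5%, 14.4% and 10.1% of all genes tested were more than 2-fold higher in clusters 1 to 7. The share of all genes lower was 39.4% (cluster 7) to 61.0% (cluster 5) by total count. With TMM sizes it was 25.9% (cluster 7) to 29.5% (cluster 3). Across the 7 sorted libraries the median of these factors and that of the 9 B-lineage genes had r = -0.09 as a description (n = 7 libraries, each scaled by its own total).

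By total count, general markers of blood cells and those of several blood cell types were also below the input. Erythroid genes were above it, and macrophage markers on either side. TMM sizes raised all clusters relative to the input (log2 shift -0.68), cluster 5 the most (0.44). A sum near the input by total count can thus change side. The sum over Ptprc, Coro1a, Laptm5, Vav1, Cd52, Cd53, Spi1 and Arhgdib, genes of haematopoietic cells of any kind, was 0.228, 0.208, 0.161, 0.294, 0.272, 0.308 and 0.587 of the input in clusters 1 to 7, with Arhgdib the most abundant, and 0 of the 8 genes were at 0 in any library. The sum over the 9 B-lineage genes was 0.297, 0.422, 0.141, 0.263, 0.256, 0.334 and 0.442 of the input. Both were lowest in cluster 3. By total count both were highest in cluster 7, and with TMM sizes clusters 6, 7 and 2 were nearly level for the B-lineage genes (0.688, 0.683 and 0.677 of the input) while cluster 7 stayed highest for the general markers (0.907). Cluster 2 was low for the general markers on both scales (0.335 with TMM sizes), and 46.5 of its B-lineage sum of 119.9 was Vpreb3. Cd79a per Ptprc was 5.73, 8.87, 5.37, 7.74, 9.38, 7.44 and 4.31 in clusters 1 to 7 and 6.45 in the input, so that cluster 7, with the most Cd79a, had the least per unit of CD45 message. The myeloid sum, with S100a9 the most abundant, was 0.236 (cluster 3) to 0.675 (cluster 7) of the input by total count. With TMM sizes 5, 6, 7, 3, 3, 0 and 0 of its 10 genes were more than 2-fold lower in clusters 1 to 7. The shares of all genes lower on that scale were 27.3%, 28.8%, 29.5%, 27.3%, 26.6%, 28.3% and 25.9%. The part of such blood cell RNA in the values of the 9 genes was not tested.

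The T cell sum was 0.130 (cluster 3) to 0.318 (cluster 2) of the input, with Lck the most abundant and Cd3e at 8 to 22 counts, and Cd8a and Cd4 were at 0 in cluster 5. In the input, however, only 2 of the 10 T cell genes were above an RPKM of 2. The median of the list there was 0.758, under the 95th percentile of olfactory receptor genes (2.76). The input medians of the NK cell and endothelial lists, 2.06 and 2.10, also lay under that percentile. The sum for NK cells was 0.255 to 0.658, with Nkg7 the most abundant and Ncr1 at 0 in cluster 1. Markers listed for plasmacytoid dendritic cells, a list led by Ly6d, which B-cell progenitors also express, summed to 0.155 to 0.407. Macrophage markers summed to 0.362 (cluster 2) to 1.42 (cluster 7), led by Vcam1, which stromal cells also express, or by Mertk, and by Csf1r in the input. Endothelial markers, led by Tek, Egfl7 or Pecam1, summed to 0.217 (cluster 6) to 1.02 (cluster 1). No gene of either list was at 0. These sums are by total count, and TMM sizes raise each relative to the input, most in cluster 5. With TMM sizes 0 endothelial markers were more than 2-fold lower in any cluster and 1 was higher in clusters 1, 2 and 5. Of all genes, 25.9% (cluster 7) to 29.5% (cluster 3) were lower, and 13.4%, 16.7% and 12.5% were higher in clusters 1, 2 and 5. Erythroid genes were above the input by total count, at 2.31 times (cluster 6) to 99.3 times (cluster 5). Hba-a1 was the most abundant except in cluster 7, where Hbb-bs was.

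**Figure D4:**
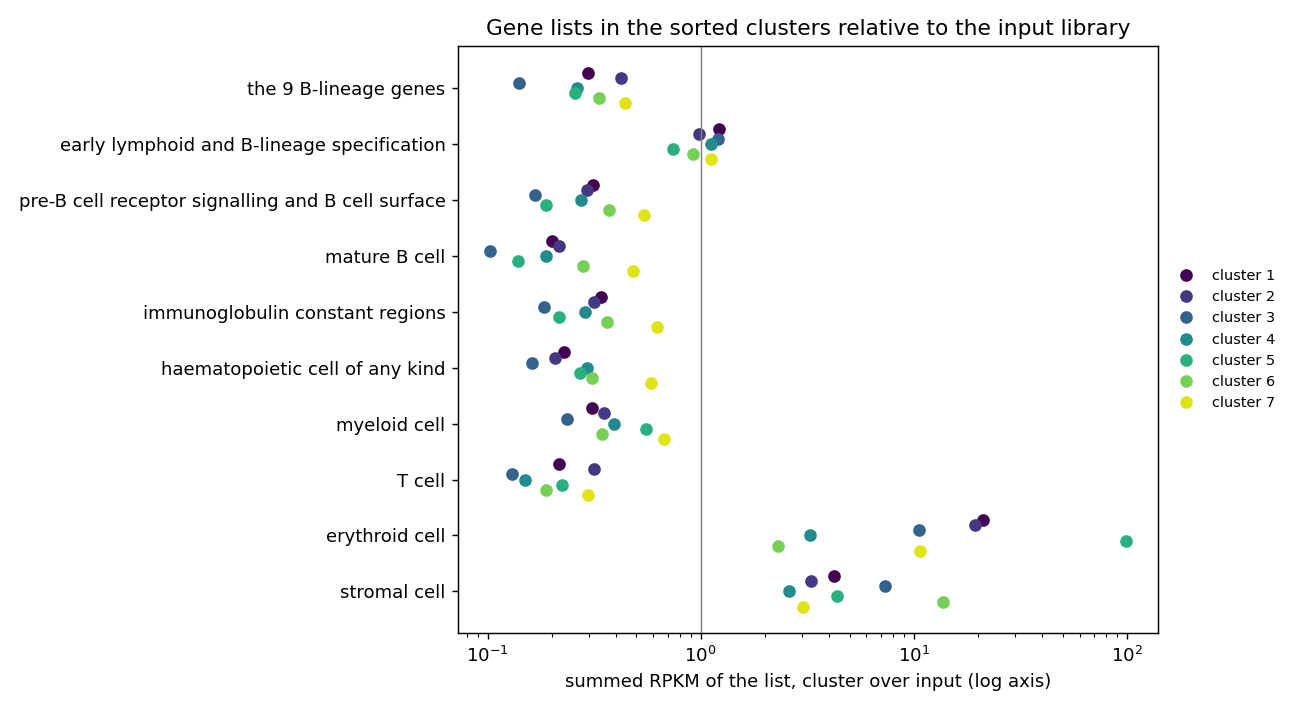
Summed RPKM of each gene list in each sorted cluster relative to the input (log axis, 1 is the input) for the 9 B-lineage genes, 4 other B-lineage lists and 5 cell type marker lists. The 9 genes lie at 0.141 (cluster 3) to 0.442 (cluster 7), and in cluster 2 at 0.422 against 0.216 for mature B cell genes and 0.208 for haematopoietic genes of any kind, while erythroid and stromal lists lie above 1 in all 7 clusters.

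Pairs of the 9 genes were compared across the sorted libraries. As a description over n = 7 libraries, each scaled by its own total, all 36 pairs had a positive Pearson r of log2(RPKM + 1), with a median of 0.71 and a range from 0.18 (Pax5 and Rag2) to 0.93 (Vpreb1 and Vpreb3). Over all pairs of the 12360 genes with RPKM above 2 in a sorted library, 68.7% were positive and the median was 0.26, so that positive values were common for genes in general. With the input included the median was 0.85 (n = 8). The median profile of the 9 genes had r = 0.82 with mature B cell genes, 0.81 with early lymphoid genes and 0.58 with the signalling genes. For lists of other blood cells it was 0.77 with plasmacytoid dendritic cells, 0.74 with T cells, 0.67 with NK cells, 0.62 with myeloid cells, 0.48 with macrophages and 0.64 with haematopoietic cells of any kind. It was 0.07 with stromal markers, -0.02 with erythroid genes and -0.42 with endothelial genes over the same 7 libraries.

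Among 13666 other genes with a symbol, RPKM above 2 in at least 1 library and at least 50 counts where highest, the 10 most like the mean profile of the 9 over the 8 libraries included Braf (r = 0.99), H2-DMb2 (0.99), Ccdc21 (0.98), Usp37 (0.98), Yeats2 (0.98), Fam116b (0.97), Nuf2 (0.97), 4933421E11Rik (0.97) and Lrr1 (0.97). H2-DMb2, a chaperone of antigen presentation, had an RPKM of 20.4 in the input against 5.19 in cluster 7 and 1.21 in cluster 3. Nuf2, a kinetochore protein of dividing cells, had 6.19, 2.87 and 1.03 in the same libraries. Of these 10 genes, 4 were among the 10 most similar when the 7 sorted libraries were used alone, and 5 with TMM sizes.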

How the data were processed

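For each of 8 libraries the authors deposited unnormalised counts of reads on Ensembl genes together with exon lengths, laid out as by featureCounts. According to the Methods, bases were quality-trimmed, reads were aligned with TopHat2 to mm9 in Partek Flow 2.2 and RPKM was computed. The deposited coordinates, by contrast, are those of GRCm38. The counting tool, strand setting and treatment of shared reads are not given in the sources used here. All positions given are GRCm38.

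Levels in RPKM used the counts, their total over genes and exon length, and were compared as log2(RPKM + 1). Symbols came from the name table and, for 12 genes, from RefSeq synonyms or GRCm38 positions, which gave 32468 of 49315 genes a symbol. With 1 library per group no test was run and no p-value is given. edgeR 4.0.16 and DESeq2 1.42.0 gave library scaling factors only. Intervals are 95% exact Poisson for a count and exact binomial for a ratio of 2 counts, and differ in width with the 12833648 to 33238133 reads per library. Thresholds of RPKM above 2 and a 2-fold difference are those of the Methods. The 9 genes, the gene lists (early lymphoid, pre-B cell receptor, mature B cell, immunoglobulin constant, plasma cell, niche factors and cell type markers) and the alternatives were chosen with earlier results of these data known. The genes named are those of the lists, Vpreb2 and the genes most similar in pattern. Items withheld from the text are not reported here, and the lists were counted without the one they held. Alternatives comprised TMM and DESeq2 scaling, omission of abundant loci from the total, equal depth, other thresholds, no filter and a pseudocount of 0.1. Calculations used R 4.3.3, scipy 1.17.1, pandas 2.3.3, numpy 2.4.6 and Python 3.11.15, and plots matplotlib 3.10.9.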

Additional observations from a re-analysis of the deposited data

How the results depend on the processing

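Of 144 recomputed counts and orders, 130 stayed within 1.5 times the reported value or named the same library, and 14 moved. The number of the 9 genes more than 2-fold lower than the input moved with the scaling. In clusters 1, 2, 6 and 7 it was 3, 2, 0 and 0 with TMM sizes, and the same with DESeq2 size factors, which also gave 3 in cluster 5. Both scalings are built to remove the general difference of the input that total counts leave. The sorted library with the highest median was cluster 7 by total count, cluster 6 with TMM sizes and with DESeq2 size factors, and cluster 5 when Lars2, mmu-mir-689-2, Rn18s-rs5, haemoglobin and mitochondrial genes were left out of the total. Cluster 3 had the lowest median under every alternative run. Of the 10 most similar genes, 5 were kept with TMM sizes and 4 with the 7 sorted libraries only. Of the 72 single levels, 26 left their Poisson interval with TMM sizes, 31 with DESeq2 size factors and 14 without the abundant loci. Thinning to equal depth, a pseudocount of 0.1, no filter and thresholds of 1 and 0.5 moved none of the counts by over 1.5 times. No paired analysis was possible because each group has 1 library, and leaving out a replicate could not be done for the same reason. Depth limits Rag1 and Rag2 most, with 6 counts for Rag2 in cluster 5.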
